A study of Mus musculus with 10 samples.

Results

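Fc receptors bind the constant tail of antibodies. The 7 genes followed were the receptor genes Fcgr1, Fcgr3, Fcgr4, Fcgr2b and Fcgrt, the signalling chain gene Fcer1g and the receptor-like Fcrls. They were taken by name from the 31053 genes of the count matrix, and all 7 had counts in the microglia of every library. The cells were CD45+ immune cells sorted from whole mouse brain, profiled by droplet single-cell RNA-seq in 10 libraries. Each library pooled 3 littermates, 2 males and 1 female, of 1 genotype and age.

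The groups were WT, Nlrp3KO, APP/PS1 and Nlrp3KO APP/PS1 mice at 3 and 9 months of age, and WT and Nlrp3KO mice also at 6 months. Nlrp3KO mice lack the inflammasome sensor Nlrp3 in every cell of the body. APP/PS1 mice carry human amyloid precursor protein and presenilin transgenes that are expressed in neurons and lead to amyloid plaques, so the cells measured here were not those that express the transgenes. All libraries shared the same treatment: actinomycin D, which blocks transcription, was present during dissociation, and an antibody against the proteins of Fcgr3 and Fcgr2b was used to block Fc binding before the sort.

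The classical receptors for IgG fall into activating members, which signal through the immunoreceptor activation motif of a shared γ chain encoded by Fcer1g, and a single inhibitory member, Fcgr2b, whose own motif recruits the lipid phosphatase SHIP1. Macrophages, microglia among them, use them to take up antibody-coated targets, and the balance of activating and inhibitory receptors sets how strongly a cell reacts to immune complexes. Fcgrt encodes the neonatal Fc receptor, which recycles IgG inside the cell, and Fcrls encodes a receptor-like relative known as a microglial marker.

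Of the 45472 cells assigned to a library, 40547 were annotated by the authors as microglia, in 6 states: homeostatic (HM), transitioning (TM), disease-associated (DAM), interferon-response (IRM), immediate-early gene (IEG) and proliferating (PM) microglia. The other 4925 cells fell into 19 types. Microglial counts summed to 9357431 to 35107144 unique molecular identifiers (UMIs) per library, at a median of 3978 to 5985 per cell. As 1 UMI stands for 1 tagged transcript 3′ end, levels do not scale with gene length. They are given as UMIs scaled to a sum of 1e6 (CPM) within the cells summed, such as the microglia or 1 type of a library. The 6 microglial markers examined summed to 13148 CPM in HM and none was at 0. Nlrp3 had 0 UMIs in the 5 Nlrp3KO libraries and 34.4 to 53.7 CPM in the 5 others. Pairs of libraries shared 0 to 16 cell barcodes, and no more than 0.405% of the smaller library in any pair. Each age was its own batch, which means that an age difference cannot be told apart from a batch difference. The genotype fits compared libraries of the same age, except those of the difference between a state and HM. Those fits, and the means and ranges of groups, took the ages together.

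In the GRCm38 annotation, Fcgr2b (chr1:170958617-170976547, minus strand), Fcgr4 (chr1:171018920-171029761, plus strand) and Fcgr3 (chr1:171051174-171064935, minus strand) formed a cluster of 106.3 kb. Fcer1g (chr1:171229572-171234365, minus strand) lay 164.6 kb beyond it. Fcgr1 (chr3:96282909-96293969, minus strand) and Fcrls (chr3:87250758-87263738, minus strand) were on chromosome 3, and Fcgrt (chr7:45092990-45103851, minus strand) on chromosome 7. All are protein-coding. Fcgr2b and Fcgrt each overlap an annotated antisense gene, Gm38204 and Gm45669. No 91-base window in the last 500 bases of any member's transcripts occurred in another gene, so the counts of the paralogs Fcgr2b, Fcgr3 and Fcgr4 were not split by shared 3′ sequence.

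The 250 bases before the start sites of Fcgr1 and Fcgr4 are shown because both genes had their highest mean among the microglial states in the interferon-response state. For Fcgr4, IRM did not separate from DAM beyond the spread between libraries (mean log2 ratio 0.61, SD 0.96, n = 10). The window of Fcrls is shown because its level differed most between states in the other direction. The windows are RefSeq promoter sequences in build GRCm38.p6, on the strand of the gene. Capitals mark matches to 3 motifs searched on both strands. They are the PU.1 core GAGGAA, the interferon-gamma activated site TTCNNNGAA, and the interferon-stimulated response element, taken as 2 copies of GAAA with any 2 bases between them. The PU.1 core lies on the other strand in Fcgr1 and Fcgr4. No 2 of the marked matches share a base.
Fcgr1 (chr3:96293970-96294219): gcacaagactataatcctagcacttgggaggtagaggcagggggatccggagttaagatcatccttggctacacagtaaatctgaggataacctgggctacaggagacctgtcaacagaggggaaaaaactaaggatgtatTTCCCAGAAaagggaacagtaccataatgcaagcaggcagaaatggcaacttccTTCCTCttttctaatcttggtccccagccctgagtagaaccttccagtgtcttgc
Fcgr4 (chr1:171018676-171018925): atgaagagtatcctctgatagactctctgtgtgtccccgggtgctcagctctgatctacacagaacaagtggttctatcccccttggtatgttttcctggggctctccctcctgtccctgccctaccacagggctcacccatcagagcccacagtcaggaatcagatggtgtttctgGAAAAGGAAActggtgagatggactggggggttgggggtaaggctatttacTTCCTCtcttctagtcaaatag
Fcrls (chr3:87263525-87263774): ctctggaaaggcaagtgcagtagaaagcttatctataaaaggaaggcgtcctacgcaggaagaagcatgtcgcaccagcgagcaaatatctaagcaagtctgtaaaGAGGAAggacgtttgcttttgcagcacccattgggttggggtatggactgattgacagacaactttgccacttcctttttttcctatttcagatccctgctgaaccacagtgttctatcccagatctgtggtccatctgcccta
The activated-site motif occurred only in the window of Fcgr1 among the 7 members and in 7.02% of 32851 mouse promoters of the same length. The response-element motif occurred only in that of Fcgr4 and in 2.98% of all promoters. The PU.1 core, the DNA core bound by a factor that macrophages require, was present in the windows of Fcgr1, Fcgr3, Fcgr4 and Fcrls and in 23.3% of all promoters. A match describes letters in the sequence and shows no binding.

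The shared signalling chain was high in all microglia and in cells that use it with other receptors. In microglia, Fcer1g lay between 2331 CPM, in APP/PS1 at 3 months, and 2765 CPM, in Nlrp3KO APP/PS1 at 9 months, with a median of 2501 over the 10 libraries. Its highest level was in non-classical monocytes (Mono NC), at 4409 ± 945 CPM (SD, n = 2 libraries with at least 20 such cells). A run of types followed in which no neighbours in the order separated beyond their spread between libraries: DAM at 3008 ± 368 (n = 10), border-associated macrophages expressing Lyve1 (BAM Lyve1) at 2977 ± 144 (n = 9), NK cells at 2828 ± 269 (n = 7), TM at 2727.5 ± 92.8 (n = 10) and BAM at 2699 ± 208 CPM (n = 10). NK cells are known to couple Fcer1g to Fcgr3 and to other activating receptors.

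**Figure D1:**
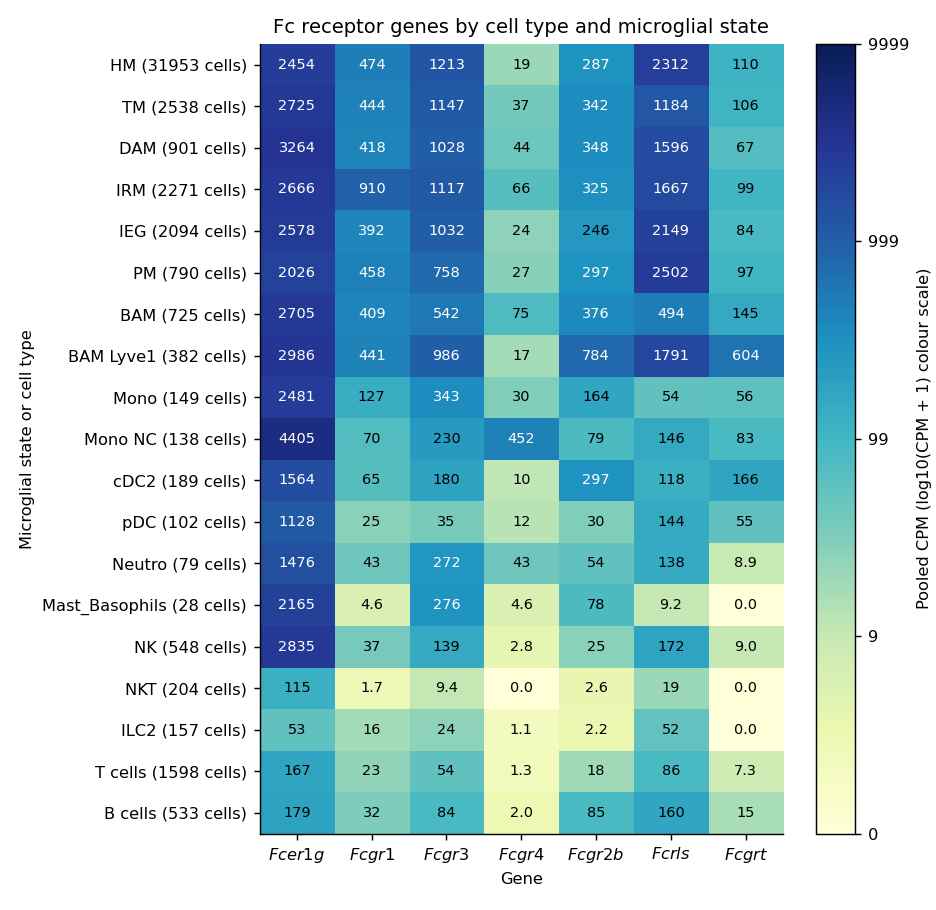
Pooled level of each Fc receptor gene (columns) in each annotated cell type and microglial state (rows), in CPM, coloured on a log10 scale of CPM + 1 with the value printed in each cell. Fcgr1 stands at 910 CPM in IRM and 474 CPM in HM, Fcgr4 at 452 CPM in Mono NC, and Fcgrt at 604 CPM in BAM Lyve1.

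The activating receptors differed in where they were high. Fcgr1, the high-affinity IgG receptor, was 920 ± 68.5 CPM in IRM and 471 ± 22.4 in HM (SD, n = 10). HM, DAM, PM, TM, IEG and both BAM types had means of 394 to 471 CPM, with no neighbours in the order separated beyond the spread, and Fcgr1 was 124 ± 10.4 CPM in monocytes (Mono, n = 2). Fcgr3, a low-affinity activating receptor, was highest in HM, at 1228 ± 73.7 CPM, and was 539 ± 45.3 CPM in BAM (n = 10) and 371 ± 38.2 CPM in Mono (n = 2). Outside microglia, the nearest mean was that of BAM Lyve1, at 960 ± 108 CPM (n = 9).

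Fcgr4, an activating receptor that mouse monocytes and macrophages use for complexed IgG, was the lowest of the 7 in microglia. It lay between 19.9 CPM, in WT at 3 months, and 37.9 CPM, in Nlrp3KO APP/PS1 at 9 months, with a median of 25.5. In non-classical monocytes it was 332 CPM in WT at 6 months and 404 CPM in Nlrp3KO APP/PS1 at 3 months, the only 2 libraries with at least 20 of these cells. Over all 138 Mono NC cells it was 452 CPM, with an exact Poisson interval of 408 to 499 CPM that covers counting error only. BAM followed at 73.4 ± 19.4 CPM (n = 10), IRM at 72.5 ± 28.5 and HM at 20.4 ± 4.39 CPM. BAM Lyve1 had 15.2 ± 9.41 CPM (n = 9), so the border macrophage type with the higher Fcgr2b had the lower Fcgr4.

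Fcgr2b, the inhibitory receptor, was highest in BAM Lyve1, at 782 ± 79.0 CPM (n = 9), followed by BAM at 374 ± 36.4 (n = 10). TM, DAM, IRM, PM and type 2 conventional dendritic cells (cDC2) lay between 299 and 343 CPM and HM at 293 ± 19.3 CPM. The number of Fcgr2b UMIs per Fcgr3 UMI sets the inhibitory receptor against its most abundant activating counterpart within the same cells. This ratio was 0.239 ± 0.017 in HM (SD, n = 10), 0.299 in TM, 0.326 in DAM and 0.405 in PM. It was 0.701 ± 0.11 in BAM (n = 10), 0.824 ± 0.13 in BAM Lyve1 (n = 9) and 1.60 ± 0.19 in cDC2 (n = 3). No library's border macrophage ratio was tested against microglia, as the types were annotated from the same counts.

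Fcrls was highest in PM, at 2508 ± 142 CPM, and in HM, at 2321 ± 107 CPM (n = 10 each). IEG had 2120 ± 174 CPM, BAM Lyve1 1775 ± 191 (n = 9), DAM 1590 ± 409, IRM 1577 ± 304, TM 1186 ± 205 and BAM 488 ± 101 CPM. Outside microglia and border macrophages no type with enough cells had a mean above 213 CPM. Fcgrt, whose product binds the β2-microglobulin chain encoded by B2m, was highest in BAM Lyve1, at 588 ± 87.2 CPM (n = 9), against 179 ± 19.2 in cDC2 (n = 3), 144 ± 29.2 in BAM and 108 ± 8.67 in HM (n = 10).

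Cells annotated as lymphocytes also held UMIs of microglial genes, so each member's level there was set beside P2ry12 and Tmem119, genes that lymphocytes are not known to express. Doublets were not removed, and the part of doublets or free RNA in these levels was not tested. P2ry12 in T cells was 14.3% of the microglial level in WT at 6 months and 0.13% to 5.77% in the 9 other libraries. In NK cells Fcer1g was 113% ± 7.74 of the microglial level of the same library (range 101% to 126%, n = 7), while P2ry12 was 9.78% and Tmem119 8.52%. NK cells were the only lymphocytes at the microglial level of Fcer1g. Fcgr3 in NK cells was 13.5% ± 5.84, above both control genes in 6 of 7 libraries. Fcgr1, Fcgr2b, Fcrls and Fcgrt in NK cells had means of 8.99% to 10.5%, near the control genes, and Fcgr4 there rests on 10 UMIs.

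In B cells Fcgr2b, known as their only IgG receptor, was 29.6% ± 15.5 of the microglial level (range 11.3% to 52.0%, n = 8), above both control genes in 8 of 8 libraries. P2ry12 in the same B cells was 6.60% and Tmem119 6.20%. Fcer1g at 6.52% and Fcgr3 at 7.55% were near the controls, and Fcgrt at 13% was above both in 6 of 8 libraries. In T cells Fcer1g was 6.34% ± 4.77, above both control genes in 10 of 10 libraries, against P2ry12 at 3.34% and Tmem119 at 3.33%. The other members in T cells had means of 2.83% to 6.04%, and Fcgrt, at 6.04%, was above both controls in 8 of 10 libraries, Fcgr2b in 5 and Fcgr3 in 3.

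**Figure D2:**
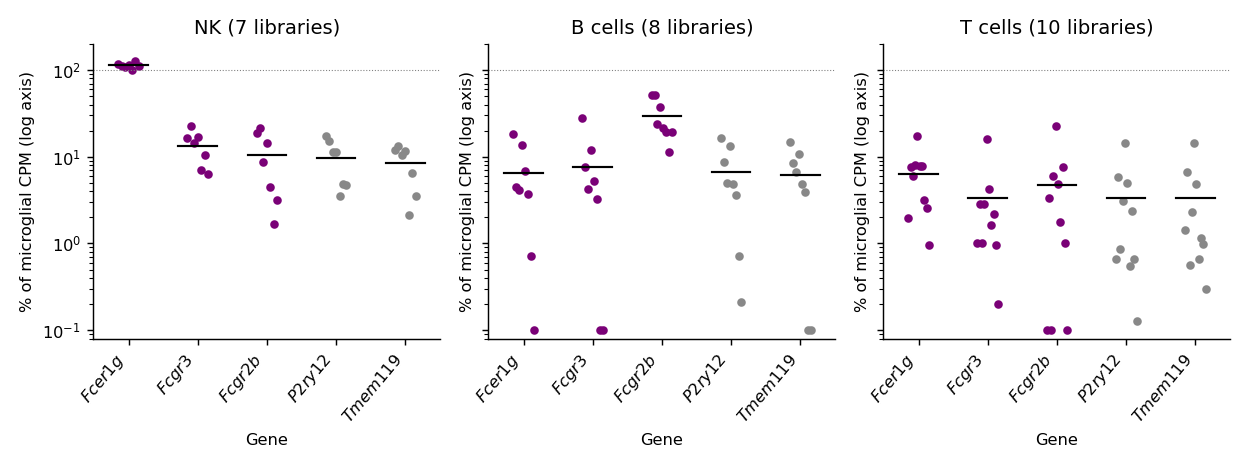
Level of Fcer1g, Fcgr3 and Fcgr2b and of the control genes P2ry12 and Tmem119 in NK, B and T cells, in percent of the microglial level of the same library, on a log axis. Each point is a library with at least 20 such cells, bars are means, and values under 0.1%, including 0, are drawn at 0.1. Fcer1g in NK cells lies at 101% to 126%, and Fcgr2b in B cells at 11.3% to 52.0%.

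The share of cells with at least 1 UMI was computed for each member. After thinning every cell to 1500 UMIs, 96.7% of microglia had an Fcer1g UMI (99.9% unthinned), 88.2% one of Fcrls (96.9%), 80.9% one of Fcgr3 (98.3%), 51.0% one of Fcgr1 (86.2%), 34.5% one of Fcgr2b (69.3%), 14.5% one of Fcgrt (37.8%) and 3.32% one of Fcgr4 (9.40%). In NK cells the thinned share was 97.6% for Fcer1g (98.9% unthinned) and 12.8% for Fcgr3 (34.9%), beside 10.6% for P2ry12 and 7.66% for Tmem119. In B cells 12% had an Fcgr2b UMI (33.6% unthinned), beside 11.3% for P2ry12 and 7.50% for Tmem119. P2ry12 had 3183 CPM in all microglia, Fcgr3 1174 and Fcgr2b 293, so the shares of different genes are given side by side and not compared. Fcgr4 had a UMI in 50.7% of Mono NC cells (80.4% unthinned).

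Within microglia, Fcgr1 and Fcgr4 were higher in the interferon-response state than in HM of the same library. Fcgr1 in IRM had a lowest library of 779.8 CPM, a median of 932 and a highest of 1037, and in HM 416, 473 and 496 CPM. Every IRM value lay above every HM value. The log2 ratio of IRM to HM was 0.97 on average (SD 0.15, n = 10 libraries, range 0.75 to 1.32). Fcgr4 in IRM was 49.5 CPM at its lowest, 62.4 at the median and 145 at its highest, and in HM 16.1, 19.1 and 31.1 CPM. These values did not overlap, and the log2 ratio was 1.79 on average (SD 0.53, range 1.05 to 3.02). Of 11390 genes compared, 5.13% were higher in IRM in every library, as both members were. A mean log2 ratio over 1 as well, which Fcgr4 had and Fcgr1 had not, was found for 2.12%. The share of genes whose IRM and HM values did not overlap across libraries was not computed.

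After thinning, 67.5% of IRM had an Fcgr1 UMI against 50.9% of HM, and 7.40% had an Fcgr4 UMI against 2.76%. Fcgr2b, Fcgr3 and Fcgrt in IRM had means of 325, 1115 and 97.5 CPM, against 293, 1228 and 108 CPM in HM. The states were annotated from the same count matrix, which holds all 7 members, so these differences describe the states and carry no test. Which members were among the variable genes used for clustering is not given.

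The transitioning state had the lowest Fcrls of the 6. Fcrls in TM had a lowest library of 899.8 CPM, a median of 1156 and a highest of 1589, and in HM 2103, 2368 and 2413 CPM. No TM value reached any HM value, and the share of genes with such a gap was not computed. The log2 ratio was −0.99 on average (SD 0.25, n = 10), against a median over all genes of −0.20 in TM, and 19.0% of genes were lower in TM than in HM in every library. Fcrls was also lower than in HM in 10 of 10 libraries in DAM (mean log2 ratio −0.59, SD 0.38) and IRM (−0.58, SD 0.29), as were 4.81% and 5.10% of all genes. Fcgr4 was higher in TM in 10 of 10 libraries (0.88, SD 0.23, beside 4.69% of all genes) and in DAM in 9 of 10 (1.17, SD 0.95). The Fcgr4 level in DAM rests on 255 UMIs in 901 cells, and 36 of them came from 37 cells of Nlrp3KO at 3 months.

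**Figure D3:**
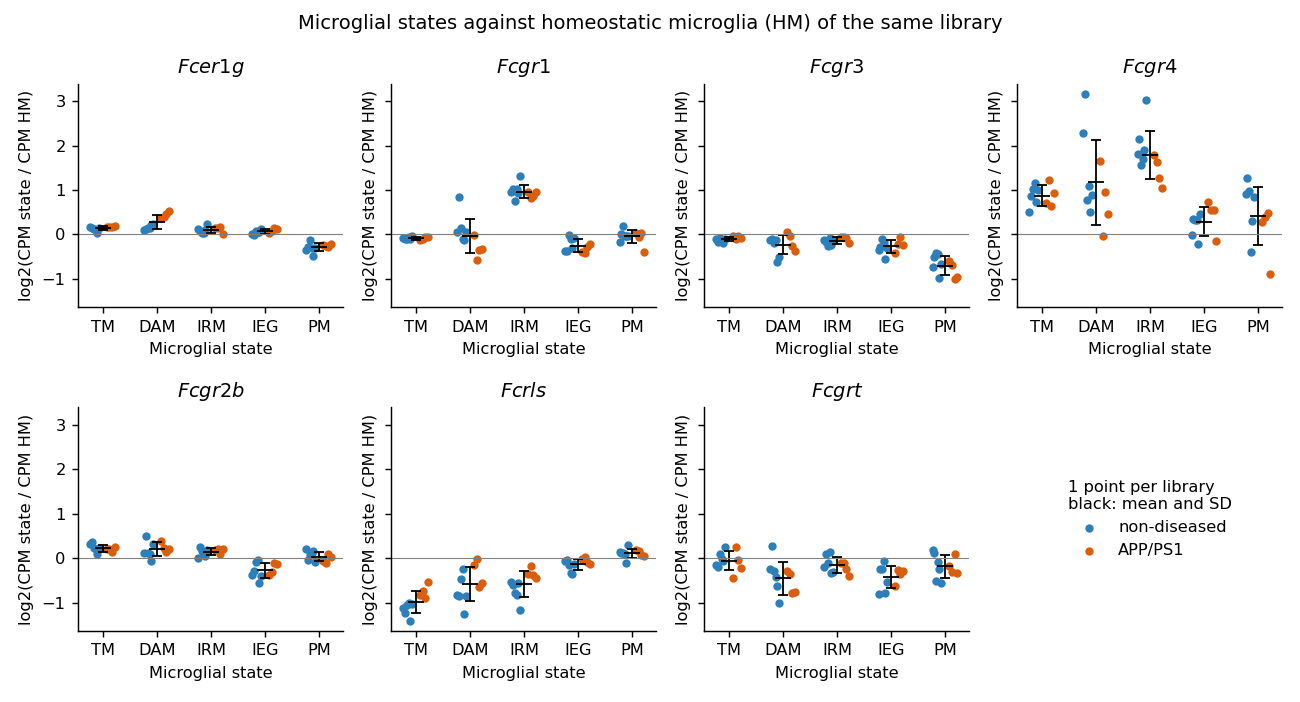
Log2 ratio of CPM in each microglial state to HM of the same library, for the 7 Fc receptor genes. Points are libraries (blue, 6 non-diseased; orange, 4 APP/PS1), and black marks give the mean and SD over the 10. Fcgr4 and Fcgr1 lie above 0 in all 10 libraries in IRM (means 1.79 and 0.97), and Fcrls lies below 0 in all 10 in TM (mean −0.99).

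Fcer1g was higher than in HM in 10 of 10 libraries in DAM (mean log2 ratio 0.27), TM (0.14) and IRM (0.11), and 3.77%, 4.69% and 5.13% of all genes were so too. In proliferating microglia, Fcgr3 (−0.70, SD 0.22) and Fcer1g (−0.29) were lower in 10 of 10 libraries, beside 3.99% of all genes. In IEG, a state marked by immediate-early genes, Fcgrt (−0.42), Fcgr2b (−0.27), Fcgr3 (−0.27) and Fcgr1 (−0.26) were lower in 10 of 10 libraries, beside 10.2% of all genes. These ratios share the HM cells of each library.

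Across the 17 types and states with a mean level, the genes most like each member were found by the Pearson correlation of log2(CPM + 1) among 5869 genes reaching 50 CPM in at least 1 type. The points share libraries, and the values describe a pattern across types. Fcer1g was most like Tyrobp (r = 0.96), Fndc3b (0.93) and Tnfrsf1a (0.93). Fcgr1 was most like Grn, Rin2 and Cd14 (all 0.98), and Fcgr3 like Grn, Lamp2 and Hk2 (all 0.98). Fcgr2b was most like Fcgrt (0.97), Rbm47 (0.96) and Ctsh (0.96), and Fcgrt in turn like Fcgr2b (0.97), Ehd4 (0.95) and Stard8 (0.95). Fcrls was most like Pmp22, Ltc4s (both 0.99) and Lgmn (0.98). Fcgr4 had the weakest likeness, to Pilra (0.91), Atp7a (0.91) and C130050O18Rik (0.91).

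The first comparison asked whether amyloid pathology changes these genes in microglia, in 4 APP/PS1 libraries against 4 non-diseased libraries of the same age and Nlrp3 genotype. None of the 7 members reached an adjusted p under 0.05 (edgeR quasi-likelihood with Benjamini-Hochberg adjustment, 4 pairs as blocks), beside 0.057% of 12282 genes that did and 0.0407% that also changed by more than 1 on the log2 scale. The CPM values of the groups overlapped for all 7, and 2.30% of all genes had groups that did not overlap. In HM alone 0 of 11887 genes were called by edgeR, which is 0.0%, with 544 at an unadjusted p under 0.05. DESeq2 also had 0 past both limits, and 9 at an adjusted p under 0.05. A pair is 1 library of each kind, so these p-values rest on the spread between pairs of pools, moderated by the variance of all genes. In the microglial fit the 4 pairs left 3 residual degrees of freedom, and the moderated test used 7.59. Fewer cells of a state cannot be told apart from a change within cells in these sums.

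**Figure D4:**
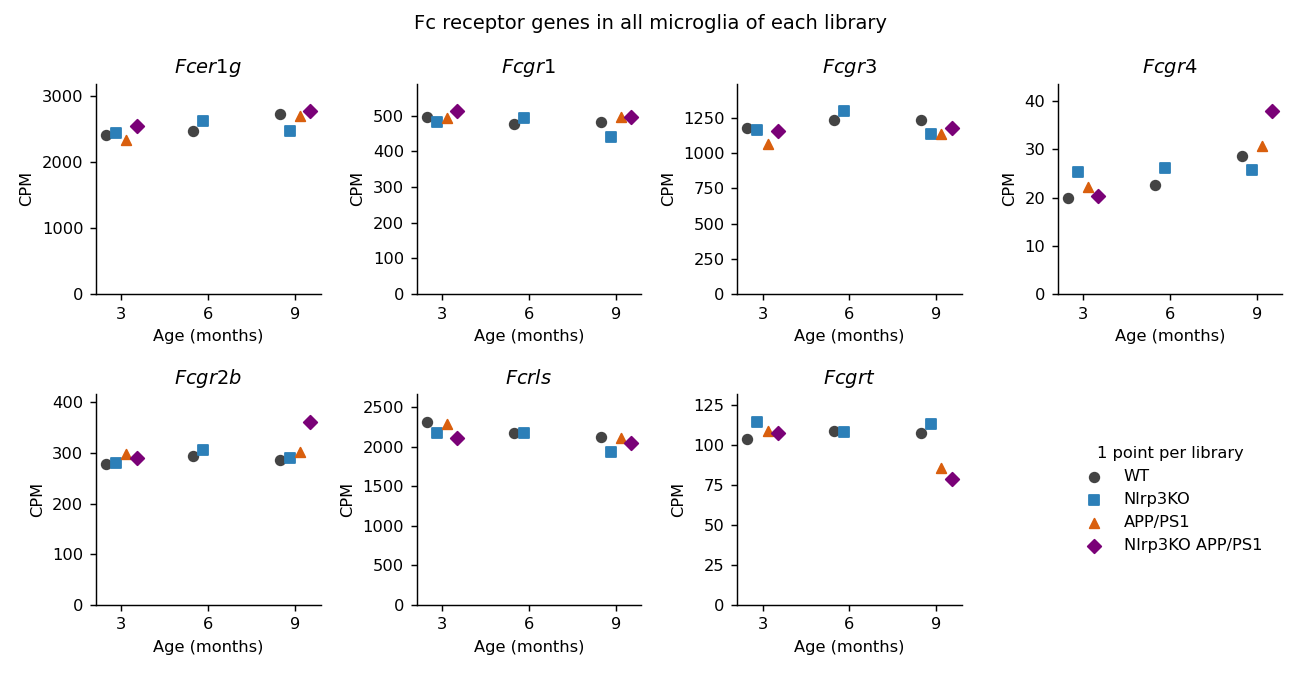
CPM of each Fc receptor gene in all microglia of each of the 10 libraries, by age in months, with genotypes in separate colours; each panel has its own axis. The values of the groups overlap for every gene, and Fcgrt is lowest in the 2 APP/PS1 backgrounds at 9 months, at 85.7 and 79.0 CPM.

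Fcgr2b was the member with a higher value in the amyloid library of every pair. It was 298 CPM in APP/PS1 against 277 in WT at 3 months, 289 in Nlrp3KO APP/PS1 against 279.7 in Nlrp3KO at 3 months, 301 against 286 at 9 months, and 362 against 290.4 at 9 months without Nlrp3. The last of these 4 pairs had the widest gap. Its log2 fold change was 0.15 (SE 0.07, 95% interval −0.01 to 0.31, adjusted p = 0.66 by edgeR), 0.075 without that pair and up to 0.20 with another pair left out. In HM alone it was 0.11 (interval −0.02 to 0.23, adjusted p = 0.90 by edgeR). The share of all genes that went 1 way in all 4 pairs was not computed. The shared direction is therefore not read as particular to Fcgr2b.

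Fcgrt was the only member whose 95% interval left out 0, and 7.47% of all genes had an unadjusted p under 0.05 in edgeR. It was 109 CPM in APP/PS1 and 104 in WT at 3 months, 108 in Nlrp3KO APP/PS1 and 115 in Nlrp3KO at 3 months, 85.7 and 108 at 9 months, and 79.0 and 113 at 9 months without Nlrp3. The amyloid library was lower in 3 of 4 pairs, and the lowest values were those at 9 months. The fold change was −0.19 on the log2 scale (SE 0.08, interval −0.38 to −0.01, adjusted p = 0.66 by edgeR), and −0.28 to −0.11 with a pair left out. In HM alone it was −0.14 (interval −0.30 to 0.02). The fold change differed between 9 and 3 months by −0.33 (interval −0.59 to −0.08, adjusted p = 0.88 by edgeR), which does not pass.

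The other members had intervals around 0 of varying width. On the log2 scale the change was 0.09 for Fcgr1 (−0.05 to 0.22), 0.06 for Fcer1g (−0.10 to 0.22), 0.02 for Fcrls (−0.12 to 0.16), −0.04 for Fcgr3 (−0.18 to 0.11) and 0.12 for Fcgr4 (−0.20 to 0.44). With a pair left out, that of Fcgr1 was 0.038 to 0.13. For Fcgr3, the main activating receptor of HM by level, the interval leaves room for changes of up to 0.18 in size on the log2 scale. No member's amyloid effect passed a test of difference between Nlrp3 genotypes (smallest adjusted p = 0.99 by edgeR) or between ages (smallest adjusted p = 0.88 by edgeR). Nor did any other of the 12282 genes, 0.0% in both tests, with 446 and 601 at an unadjusted p under 0.05 in edgeR. Fcgr4 had the largest difference between ages, 0.50 (interval −0.03 to 1.03, adjusted p = 0.88 by edgeR).

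The second comparison asked whether loss of Nlrp3 changes these genes, in 5 Nlrp3KO libraries against 5 Nlrp3WT libraries of the same age and background. None of the 7 passed (smallest adjusted p = 0.90, edgeR quasi-likelihood with Benjamini-Hochberg adjustment, 5 pairs as blocks), beside 0.0404% of 12383 genes at an adjusted p under 0.05 and 0.0242% past both limits. None passed in HM alone either, beside 0.0501% of 11970 genes at an adjusted p under 0.05 and 0.0334% past both. The groups overlapped for all 7 members, and 0.396% of all genes had groups that did not. The 2 comparisons share 8 libraries.

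Fcrls was lower in the Nlrp3KO library of all 5 pairs, by small amounts. It was 2180 CPM in Nlrp3KO and 2317 in WT at 3 months, 2169.5 and 2170.2 at 6 months, 1932 and 2127 at 9 months, 2117 in Nlrp3KO APP/PS1 and 2294 in APP/PS1 at 3 months, and 2043 and 2113 at 9 months. The pair of 6 months was nearly equal. In HM alone Fcrls was lower in 4 of 5 pairs, with 2382 CPM in Nlrp3KO and 2353 in WT at 6 months. The share of all genes that went 1 way in all 5 pairs was not computed. In all microglia the fold change of Fcrls was −0.07 on the log2 scale (SE 0.04, interval −0.16 to 0.02, adjusted p = 0.90 by edgeR). The values for the others were 0.13 for Fcgr4 (−0.07 to 0.33), 0.07 for Fcgr2b (−0.06 to 0.20), 0.03 for Fcgr3 (−0.07 to 0.13), 0.03 for Fcer1g (−0.08 to 0.14), 0.02 for Fcgrt (−0.07 to 0.12) and −0.01 for Fcgr1 (−0.10 to 0.09). With a pair left out, that of Fcgr4 was 0.069 to 0.20, that of Fcgr2b 0.0091 to 0.094, that of Fcgr3 0.0035 to 0.064 and that of Fcer1g 0.0037 to 0.072. No member passed a test of difference in the Nlrp3 effect between backgrounds (adjusted p = 1 by edgeR for all 7). Nor did any other of the 12383 genes, 0.0%, with 310 at an unadjusted p under 0.05 in edgeR.

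**Figure D5:**
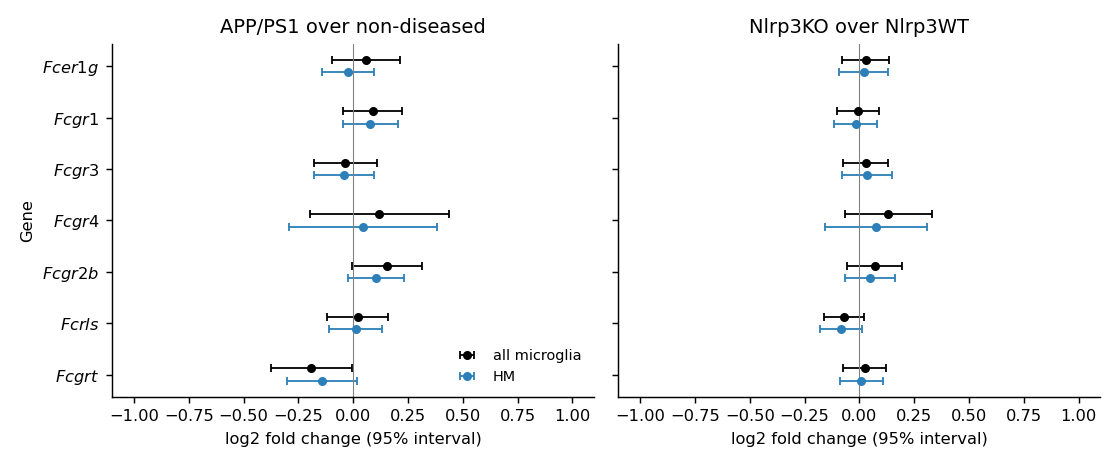
Log2 fold changes of the 7 Fc receptor genes with 95% intervals, between APP/PS1 and non-diseased libraries (4 pairs) and between Nlrp3KO and Nlrp3WT libraries (5 pairs), in all microglia (black) and in HM (blue). Every interval includes 0 except that of Fcgrt for APP/PS1 in all microglia, at −0.38 to −0.01, where 7.47% of all genes had an unadjusted p under 0.05 in edgeR.

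Within the transitioning and disease-associated states, Fcrls was higher in the APP/PS1 libraries. These comparisons were chosen after the values of the libraries had been seen. In TM, Fcrls was 1348 and 1303 CPM in APP/PS1 at 3 and 9 months and 1298 and 1589 in Nlrp3KO APP/PS1, against 1111 and 899.8 in WT and 972 and 1023 in Nlrp3KO. The groups did not overlap, at 1384 ± 138 and 1002 ± 88.9 CPM (SD, n = 4 each), and 2.16% of genes had groups that did not. WT and Nlrp3KO at 6 months, which have no amyloid partner, had 1131 and 1182 CPM. The log2 fold change was 0.46 (SE 0.07, interval 0.32 to 0.61, adjusted p = 0.0012 by edgeR), and 0.0452% of 8856 genes had an adjusted p under 0.05. The adjusted p was 0.14 without the 9-month pair lacking Nlrp3, 0.10 for cells named TM in both of the authors' annotations, and 0.026 with DESeq2.

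In DAM, Fcrls was 2140 and 1539 CPM in APP/PS1 at 3 and 9 months and 2145 and 1575 in Nlrp3KO APP/PS1, against 1348 and 991 in WT and 1269 and 1167 in Nlrp3KO. The groups did not overlap here either, at 1849 ± 339 and 1194 ± 154 CPM, beside 11.9% of genes. The non-diseased libraries of 6 months, with no amyloid partner, had 1710 CPM in WT and 2015 in Nlrp3KO, within the range of the amyloid libraries. Between the ages with an amyloid partner, the 3-month library, with 24 to 83 DAM, was higher than the 9-month one in each of the 4 genotypes. The log2 fold change was 0.78 (SE 0.14, interval 0.50 to 1.06, adjusted p = 0.00039 by edgeR), in a comparison where 7.61% of 6331 genes had an adjusted p under 0.05. In HM of the same libraries Fcrls was 2325 ± 112 CPM in the amyloid group and 2295 ± 138 in the other, with overlapping values.

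In IRM, Fcrls was 1703 to 1917 CPM in the 4 amyloid libraries and 931 to 1656 CPM in the 4 others, without overlap, beside 2.4% of genes. Its log2 fold change within IRM was 0.38 (SE 0.08) and did not pass (adjusted p = 0.20 by edgeR), in a comparison where 0.0459% of 8717 genes did. The amyloid effect on Fcrls differed from that in HM by 0.45 in TM (SE 0.05, adjusted p = 4.0e-14 by edgeR), 0.83 in DAM (adjusted p = 9.2e-05 by edgeR) and 0.34 in IRM (adjusted p = 6.9e-05 by edgeR). Of all genes, 0.179%, 4.14% and 0.412% had such a difference at an adjusted p under 0.05. These fits took the library as the block, without the pairs, and left 6 residual degrees of freedom. With variance moderated over all genes, the tests used 202 in TM, 41.2 in DAM and 98.8 in IRM. Their p-values thus draw mostly on the variance of all genes. The ratio of Fcrls to HM was higher in the amyloid library in 4 of 4 pairs in each of the 3 states. A two-sided exact permutation test that exchanges the libraries within pairs gave p = 0.125, the smallest that 16 arrangements allow, so this design cannot reach 0.05. Fcer1g and Fcgr3 were also higher in 4 of 4 pairs in TM and DAM, and Fcgr1 was lower in all 4 in DAM and IRM. The share of all genes that went 1 way in all 4 pairs was not computed. The mean log2 ratios of Fcrls to HM were −0.75 against −1.20 in TM, −0.35 against −0.95 in DAM and −0.34 against −0.72 in IRM. The 3 differences share the HM libraries.

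The cells named DAM were not alike in both backgrounds. Cst7, a defining DAM gene, was 848 to 2785 CPM in DAM of the 4 APP/PS1 libraries and 74.0 to 205 CPM in those of the 6 non-diseased libraries, and Apoe was 4943 to 12968 against 803 to 4392 CPM. In TM, Cst7 was 28.1 to 122 against 27.5 to 65.7 CPM, with medians of 106 and 35.4 CPM. In IRM, the medians were 75.8 against 28.9 CPM for Cst7 and 814 against 1102 CPM for Apoe, with ranges that overlapped. The summed border macrophage markers in DAM were 8.79 to 41.2 against 0 to 55.9 CPM, far below the 9641 CPM of BAM Lyve1. The part of this unequal make-up in the member differences within DAM, TM and IRM was not tested.

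Among the other members, the amyloid effect on Fcer1g was larger in DAM than in HM by 0.50 (adjusted p = 0.0059 by edgeR), and that on Fcgr4 was lower in IRM than in HM by 0.70. Fcer1g in DAM was 2975 and 3436 CPM in APP/PS1 at 3 and 9 months and 3281 and 3663 in Nlrp3KO APP/PS1, against 2553 and 3164 in WT and 2632 and 2819 in Nlrp3KO. WT at 9 months lay within the range of the amyloid libraries. Within DAM alone the change in Fcer1g was 0.42 and did not pass (adjusted p = 0.057 by edgeR). From the CPM ratios to HM the difference was 0.28. The amyloid library was higher in 4 of 4 pairs, and the share of all genes with 1 direction was not computed. The difference from HM had adjusted p = 0.080 by edgeR without the 3-month WT pair and 0.14 without the 9-month Nlrp3KO pair. Its size was 0.46 to 0.54 with a pair left out. Fcgr4 in IRM was 59.3 and 53.7 CPM in APP/PS1 at 3 and 9 months and 49.5 and 64.0 in Nlrp3KO APP/PS1, against 60.8 and 84.5 in WT and 87.5 and 145 in Nlrp3KO. The highest value, of Nlrp3KO at 9 months, came from 104 cells. The difference had adjusted p = 0.021 by edgeR with all pairs, 0.11 without the 3-month Nlrp3KO pair, and 0.75 without the 9-month one, where it was −0.35. In DAM, the difference from HM did not pass for Fcgr4 (−0.88, interval −1.62 to −0.14, adjusted p = 0.24 by edgeR) or Fcgr3 (0.42, adjusted p = 0.079 by edgeR).

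In BAM, macrophages of the brain borders that also take up antibody complexes, no member passed the test in either comparison. Fcgrt was 135 and 104 CPM in APP/PS1 at 3 and 9 months and 149 and 125 in Nlrp3KO APP/PS1, against 169.5 and 169.6 in WT and 189 and 171 in Nlrp3KO. These groups did not overlap, beside 3.26% of genes. The change in Fcgrt was −0.48 on the log2 scale (adjusted p = 0.29 by edgeR), that in Fcrls −0.43 (adjusted p = 0.27) and that in Fcgr1 −0.32 (adjusted p = 0.47), beside 0.725% of 5928 genes at an adjusted p under 0.05. The WT and Nlrp3KO libraries of 6 months, which have no amyloid partner, had 117 and 114 CPM of Fcgrt, within the range of the APP/PS1 libraries. For Nlrp3 loss, Fcgr4 had a log2 fold change of −0.45 (adjusted p = 0.90 by edgeR), beside 0.0746% of 6700 genes at an adjusted p under 0.05.

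The pathway around the receptors was followed with lists of genes. Of 26 genes of activating Fc receptor signalling, 25 were tested in microglia and none passed in either comparison. For amyloid their median log2 fold change was −0.01, beside 0.00 over all genes, and the 3 with the smallest p were the kinase Fgr (0.63, adjusted p = 0.51 by edgeR), the adaptor Lat2 (0.18, adjusted p = 0.54) and the kinase Fyn (0.30, adjusted p = 0.55). All 12 genes of inhibitory signalling were tested and none passed, with a median of −0.06 and log2 fold changes of −0.14 for Dok3, −0.12 for Cd300a and −0.10 for Dok1, the 3 with the smallest p. For Nlrp3 loss the medians were 0.02 and −0.01, and the genes with the smallest p were Lat2 (0.11) and the inhibitory adaptor Dok3 (−0.12), both at adjusted p = 0.90 by edgeR.

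Of 13 other Fc receptor and partner genes, 3 had enough counts in microglia and none passed for amyloid or Nlrp3 loss. B2m, the partner chain of the Fcgrt product, had a log2 fold change of 0.37 for amyloid (adjusted p = 0.37 by edgeR). Of 13 receptors that signal through Fcer1g or its relative Tyrobp, 4 were tested in each comparison and none passed. In DAM, 4 of the 35 genes tested from these 4 lists had an adjusted p under 0.05 for amyloid, beside 7.61% of all genes. They were Tyrobp (1.19, adjusted p = 2.1e-05 by edgeR), the phagocytic receptor gene Trem2 (0.76), B2m (0.86) and the kinase gene Tec (1.04). The make-up of DAM in that comparison was unequal, as given above.

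The signalling genes were also spread unevenly over cell types. Inpp5d, which encodes SHIP1, had 511 CPM in HM, 201 in BAM, 132 in B cells and 94.3 in T cells. Lyn, a kinase that phosphorylates the receptor motifs, had 565 CPM in HM and 624.6 in Mono NC. Syk, the kinase recruited to the activating motif, had 271 CPM in B cells, 223 in Mono NC, 104 in HM and 5.98 in T cells. Fgr had 564 CPM in Mono NC, the type with the highest Fcer1g and Fcgr4, and 2.68 CPM in HM. These are pooled levels over all libraries.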

How the data were processed

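Brains of 3 littermates per genotype and age were pooled, and CD45+ cells were profiled with 10x 3′ chemistry (the submitters' processing notes name Cell Ranger and mm10). The deposited matrix holds the authors' UMI counts per gene and cell, not normalized. The deposited cell tables hold the authors' annotation, the percent of mitochondrial counts, the fraction of ribosomal counts and a doublet score per cell. Cells under 2 sample names that match no labelled sample (6897 cells) were not used.

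Counts were summed per library and annotated type or state (at least 20 cells for a mean) and scaled to CPM. Ratios to HM used a prior of 0.5 counts. Fits used edgeR 4.0.16 (R 4.3.3, filterByExpr, TMM, quasi-likelihood F test, Benjamini-Hochberg over all genes tested) with pairs of the same age as blocks, and DESeq2 1.42.0 as an alternative. Differences of the amyloid effect between a state and HM used the library as the block instead. The edgeR test moderates each gene's variance by that of all genes. For amyloid, 3 residual degrees of freedom became 32.7 within TM and 25.0 within DAM. Calls needed both an adjusted p under 0.05 and a log2 change of more than 1 in size. Intervals are 95%, from the fitted t distribution. Poisson and binomial intervals, and a limit of 3 counts for a count of 0, cover counting error only. In counts simulated from the microglial sums with 200 genes changed, 99% were recovered at a log2 change of 1 and 100% at 2, in both comparisons. False calls were 2.45% of all calls for amyloid and 6.13% for Nlrp3. The simulation gave every gene the same dispersion, added no spread between pairs or batches, and changed only genes above a count limit. It tried no log2 change under 1, so the recovery of smaller changes in the real pools was not gauged.

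The 7 genes, the lists and the tests were chosen with earlier results of these data known. All 7 are named in the comparisons of all microglia; within single states and BAM, those named were chosen after their values were seen. Of each list, counts and up to 3 genes with the smallest p are named, and of each member the 3 genes with the highest correlation over types. Doublets were not removed, and the effect of leaving out cells with a score over 0.5 was computed. One further microglial control gene is not reported here.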

Additional observations from a re-analysis of the deposited data

Results flagged for a closer look

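Of 56 groups of 4 or 5 libraries examined, 9 had a library far from the others by Dixon's criterion, which chance alone would mark in about 1 of 20 independent groups. These groups share libraries and mix ages, and HM are part of the microglia. Their count of 9 can therefore not be read as an excess over that share. Among the non-diseased libraries of 3 and 9 months, WT at 9 months stood apart with Fcer1g at 2717 CPM in microglia and 2710.0 CPM in HM, and with Fcgr3 at 1313 CPM in HM. Among the APP/PS1 libraries, Nlrp3KO APP/PS1 stood apart at 3 months with Fcgr1 at 512.5 CPM in microglia, and at 9 months with Fcgr2b at 362 CPM in microglia and 344 CPM in HM. Nlrp3KO at 6 months was the high library of the Nlrp3KO group for Fcgr3, at 1297 CPM. Fcgrt was low in both amyloid libraries of 9 months, at 79.0 CPM in the Nlrp3KO group and 85.7 CPM in the Nlrp3WT group.

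Of 42 tests of a difference between states, ages or genotypes, 5 passed for a member, all of them between a state and HM of the same libraries. Over all genes, 0.179% passed in TM, 4.14% in DAM and 0.412% in IRM. In each test between ages, Nlrp3 genotypes or backgrounds, 0.0% passed. The amyloid effect on Fcrls was larger than in HM by 0.45 in TM, 0.83 in DAM and 0.34 in IRM on the log2 scale. The effect on Fcer1g was larger in DAM by 0.50, and that on Fcgr4 differed in IRM by −0.70. The last 2 of these differences lost the adjusted p under 0.05 when single pairs of libraries were left out, as given above. With a pair left out, that of Fcer1g was 0.46 to 0.54 and that of Fcgr4 −0.94 to −0.35. The states were cut from the same counts, and the part of that choice in these differences was not tested.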

How the results depend on the processing

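The genes called for amyloid in microglia numbered 5, against 22 by DESeq2, 0 in HM cells only and 0 to 11 when each pair was left out in turn. Those called for Nlrp3 loss numbered 3, against 6 by DESeq2, 5 by adjusted p alone and 2 to 8 with a pair left out. In HM they numbered 0 and 4, with 0 to 4 and 2 to 8 when a pair was left out. In TM, 4 genes had an adjusted p under 0.05, against 1 by DESeq2, 0 for cells named alike in both annotations, and 1 (without the 9-month Nlrp3KO pair) to 9 (without the 9-month WT pair) with a pair left out. In DAM there were 482, against 227 by DESeq2 and 236 (without the 9-month Nlrp3KO pair) to 453 with a pair left out. Some members changed sign in the microglial comparisons, none of them past the threshold. For amyloid, Fcer1g was −0.024 in HM cells only and Fcrls −0.0029 without cells of a doublet score over 0.5. With a pair left out, the amyloid value was −0.0012 to 0.10 for Fcer1g, −0.091 to 0.0072 for Fcgr3, −0.035 to 0.30 for Fcgr4 and −0.023 to 0.051 for Fcrls, and the Nlrp3 value was −0.025 to 0.024 for Fcgr1 and −0.011 to 0.045 for Fcgrt. The other signs held in these alternatives: DESeq2's size factors and test, no filter on low counts, HM only, no doublet-like cells, additive covariates and each pair left out. The ratios of states to HM kept their sign and size in 350 of 350 values with a library left out, and moved in 7 of 105 other alternatives, all by more than the spread between libraries, with states named from the annotation of all cells. Levels per type moved in 10 of 245 alternatives, and shares of cells with a UMI in 45 of 56, where thinning to another depth, or not at all, changes them by construction. The cause of the other changes was not tested. With 1 library per genotype and age, no group has a replicate of its own, and Fcgr4, at about 26 CPM, is the member for which depth limits precision most.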

Other observations

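Fc receptor genes outside the 7 were also measured. Fcer1a, the IgE-binding chain that pairs with Fcer1g on mast cells and basophils, had 1751 CPM in the 28 cells annotated as mast cells and basophils, and Ms4a2, its β chain, had 1411 CPM there. Fcmr, the receptor for IgM, had 469 CPM in B cells, and Fcrla, a B cell relative of Fcrls, had 283 CPM. Fcrl1, known as a B cell gene, had 56.5 CPM in B cells and 41.3 CPM in HM, from 6054 UMIs. These are pooled levels, and none of these genes was compared between genotypes here except Fcrl1, whose log2 fold change for amyloid in microglia was −0.15 (adjusted p = 0.65 by edgeR).

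Immunoglobulin genes encode the chains of antibodies, and Igkc had 40748 CPM in B cells. In microglia, 4 of 13 immunoglobulin genes were tested for amyloid and none passed. Igha had a log2 fold change of 4.72 (SE 1.08) and Igkc one of 1.67 (SE 0.51), at adjusted p = 0.37 and 0.51 by edgeR. The part of free RNA or of doublets in these microglial sums was not tested.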
